A study of Mus musculus with 6 samples.

Results

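Abcg5, Abcg8, Abca1 and Abcg1 encode the ATP-binding cassette (ABC) transporters that move sterols out of cells, and they were followed through 4 liver and 2 adrenal RNA sequencing libraries. The members were the rows with these 4 names among the 33639 gene symbols of the deposited count and TPM tables. The animals, labelled male, were mice that lack ABCG8 in every tissue. Before weaning they ate a low sterol diet with 0.005% ezetimibe, which blocks intestinal sterol uptake, and afterwards a diet of low sitosterol, high sitosterol, ergosterol or stigmasterol for 12 weeks. Each liver group (low sitosterol, high sitosterol, ergosterol, stigmasterol) and each adrenal group (low sitosterol, high sitosterol) was 1 library from 1 mouse. All 6 libraries therefore carry the Abcg8 knockout, and no library with intact Abcg8 was analysed here. The sterol doses, the age of the mice beyond the weeks on diet, the strain and the deleted part of Abcg8 are not in the labels used here.

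ABCG5 and ABCG8 are half-transporters that work only as a pair. In liver the pair sits in the canalicular membrane of hepatocytes and pumps plant sterols and cholesterol into bile, and in the gut it returns them to the lumen. ABCA1 and ABCG1 instead load cellular cholesterol onto lipoproteins, ABCA1 onto lipid-poor apolipoprotein A-I and ABCG1 onto mature HDL particles, and both are prominent in macrophages. All 4 genes are known targets of the liver X receptors (LXR), nuclear receptors that sense oxysterols and some plant sterols. Sitosterol and stigmasterol are plant sterols and ergosterol is a fungal sterol.

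The depth of the libraries ran from 41546507 to 50573364 estimated counts, so the upper limit behind a count of 0 was 0.0593 to 0.0722 CPM, the count scaled to the library total. Levels are given below as scaled CPM, which adds TMM scaling between the libraries of a tissue, and as TPM where genes are compared with each other, since TPM accounts for transcript length. A gene was called higher or lower when its ratio between 2 libraries was at least 2-fold and the exact 95% counting interval of the ratio excluded equality. With 1 library per group there was no replicate check, no test and no p-value: each ratio compares 2 libraries, not 2 diets, and its interval covers counting error only. Hepatocyte markers summed to between 62287 scaled CPM, in the stigmasterol liver, and 148726 in the high sitosterol liver. Adrenal cortex markers summed to 63960 and 66872 scaled CPM in the adrenals. They were also present in the low sitosterol liver, the control of every liver comparison, where their median share of the adrenal level was 0.147%, compared with 0.00607% to 0.0184% in the other 3 livers. That share would amount to 0.691 CPM of Abca1 and 0.0267 CPM of Abcg1 in the low sitosterol liver, less than 1% of what was measured there for either gene. The adrenals went against their male label in part. Eif2s3y, a Y-linked gene, had 1293 to 1680 counts in liver but 0 and 2 in adrenal. Ddx3y had 1188 to 2201 against 3 in each adrenal, and Uty 252 to 443 against 9 and 19. Kdm5d had 323 to 500 in liver and 87 and 105 in adrenal. All 4 of these Y-linked genes were called lower in adrenal than in liver on either diet, beside 23.8% of 15125 genes on low and 24.3% on high sitosterol.

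Abcg5 and Abcg8 lie head to head on mouse chromosome 17 (GRCm38, GENCODE M21). Abcg8 (ENSMUSG00000024254.15) spans chr17:84676302-84700333 on the plus strand and Abcg5 (ENSMUSG00000040505.13) spans chr17:84658234-84683011 on the minus strand. The start sites of their longest models, Abcg5-201 and Abcg8-201, are 110 bases apart and point away from each other. The bases between them are shown because one short stretch is upstream of both half-transporters. The RefSeq window from 250 bases before to 50 bases after the Abcg8 start is chr17:84682871-84683170 (GRCm38.p6, plus strand), and 209 of its 300 bases are also in the Abcg5 window. Capitals mark GATAA on either strand, the core that GATA factors bind, and the sequence reads
Abcg8 and Abcg5 shared promoter: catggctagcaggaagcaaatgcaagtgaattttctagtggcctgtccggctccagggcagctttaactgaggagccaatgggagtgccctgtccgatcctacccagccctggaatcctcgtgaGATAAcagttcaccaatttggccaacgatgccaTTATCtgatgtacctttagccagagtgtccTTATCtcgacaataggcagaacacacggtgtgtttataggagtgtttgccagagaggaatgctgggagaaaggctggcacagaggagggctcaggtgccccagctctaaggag
GATAA was found 3 times, at 126, 93 and 63 bases before the Abcg8 start, and all 3 lie in the bases that both windows share. Of the 32851 RefSeq windows of this length, 25.4% hold at least 1 copy. The hexamer AGGTCA, the half-site of many nuclear receptors, was in neither window, and 16.3% of all windows hold it. The direct repeat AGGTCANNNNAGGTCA, the kind of site that LXR binds, was in neither window either with up to 3 mismatches, against 21.9% of all windows. The repeat AGGTCANAGGTCA was met once with 3 mismatches, in the shared bases and overlapping the GATAA farthest from the Abcg8 start, and 24.6% of windows hold such a match.

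Abca1 (ENSMUSG00000015243.4) spans chr4:53030787-53159895 on the minus strand. Its RefSeq window, chr4:53159846-53160145 on the minus strand, is shown beside the shared one because its ratios between the livers differed from those of Abcg5 and Abcg8. Capitals mark an E-box, CACGTG, 147 bases before the start and the closest match to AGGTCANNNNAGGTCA, on the opposite strand with 3 mismatches, which begins 67 bases before the start.
Abca1 promoter: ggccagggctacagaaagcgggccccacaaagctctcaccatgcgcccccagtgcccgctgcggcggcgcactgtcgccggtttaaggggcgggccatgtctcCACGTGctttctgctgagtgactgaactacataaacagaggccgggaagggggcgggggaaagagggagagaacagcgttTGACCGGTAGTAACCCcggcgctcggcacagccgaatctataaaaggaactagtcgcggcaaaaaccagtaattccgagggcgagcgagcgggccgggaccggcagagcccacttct
CACGTG occurs in 7.15% of windows. These matches are descriptions of the letters and no binding was measured. Abcg1 (ENSMUSG00000024030.7) spans chr17:31057675-31117988 on the plus strand, on the same chromosome as the Abcg5 and Abcg8 pair.

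**Figure D1:**
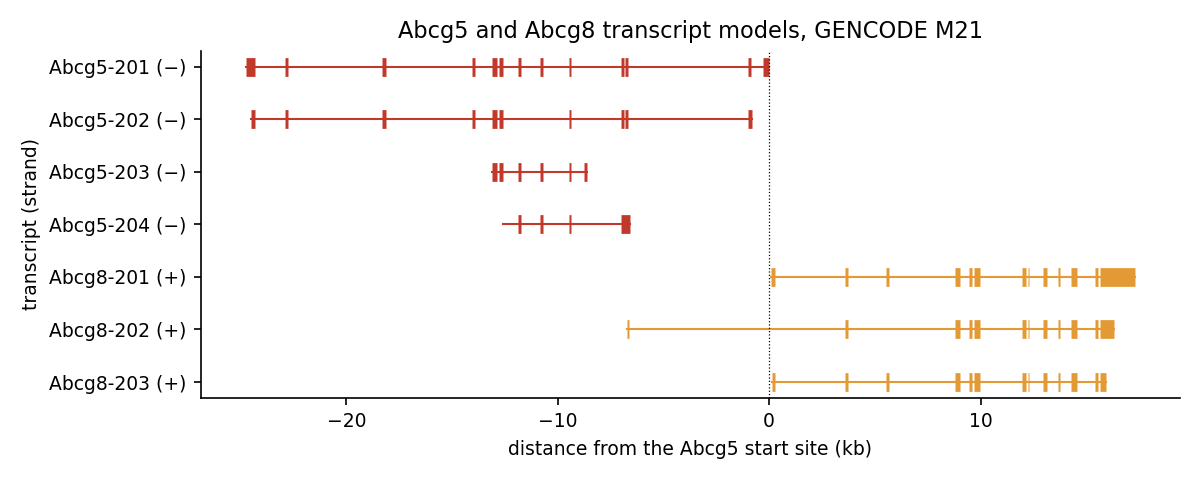
Transcript models of Abcg5 (red) and Abcg8 (orange) in GENCODE M21, one per row, with exons as blocks, introns as lines and the strand in brackets. The horizontal axis is the distance in kb from the Abcg5-201 start site (dotted line); Abcg8-201 and Abcg8-203 start just to its right, while Abcg8-202 starts inside Abcg5.

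The overlap bears on the counts. The gene spans share 6710 bases because Abcg8-202 begins within Abcg5, but in exons the models share 82 bases, of 2712 exonic bases for Abcg5 and 3749 for Abcg8. The main models Abcg5-201 and Abcg8-201 share 0 exonic bases. The library kit named in the labels does not mark the strand, so reads from the shared bases cannot be told apart. In a global knockout of Abcg8, moreover, its counts are what is left of the transcript, and since the deleted part was not given they do not check the knockout.

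Abcg5 had 480 counts in the low sitosterol liver, 8710 with high sitosterol, 3245 with ergosterol and 8979 with stigmasterol. On the scaled CPM scale these levels were 11.9, 189.5, 72.7 and 129.5. The low sitosterol liver was far below the other 3. By length-scaled level Abcg5 moved from 4.69 TPM, above 65.7% of the genes detected in the low sitosterol liver, to 90.0 TPM in the high sitosterol, 37.5 TPM in the ergosterol and 97.6 TPM in the stigmasterol liver. In those 3 livers it stood above 94.3%, 88.3% and 93.6% of detected genes.

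Abcg8, whose product cannot reach the membrane without ABCG5, had 51, 490, 394 and 788 counts in the same order of livers. Its scaled CPM were 1.26, 10.7, 8.82 and 11.4. Again the low sitosterol liver was the lowest, and the other 3 lay close together. Abcg8 remained a low transcript by length, at 0.300, 3.17, 2.86 and 5.97 TPM.

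Abca1 had 4128, 4001, 4905 and 6778 counts, or 102, 87.1, 109.8 and 97.8 scaled CPM. In scaled CPM the 4 livers lay within a narrow range and the low sitosterol liver was not at the edge of it. In TPM the low sitosterol liver was the lowest, at 8.37, and the stigmasterol liver the highest, at 15.6. Abcg1, the exporter to HDL, had 165, 568, 300 and 1251 counts, or 4.08, 12.4, 6.72 and 18.0 scaled CPM. On the scaled CPM scale its order of livers differed from that of Abcg5, while in TPM both had the same order: stigmasterol was highest, then high sitosterol, ergosterol and low sitosterol. None of the counting intervals of the Abcg1 levels in scaled CPM overlapped.

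**Figure D2:**
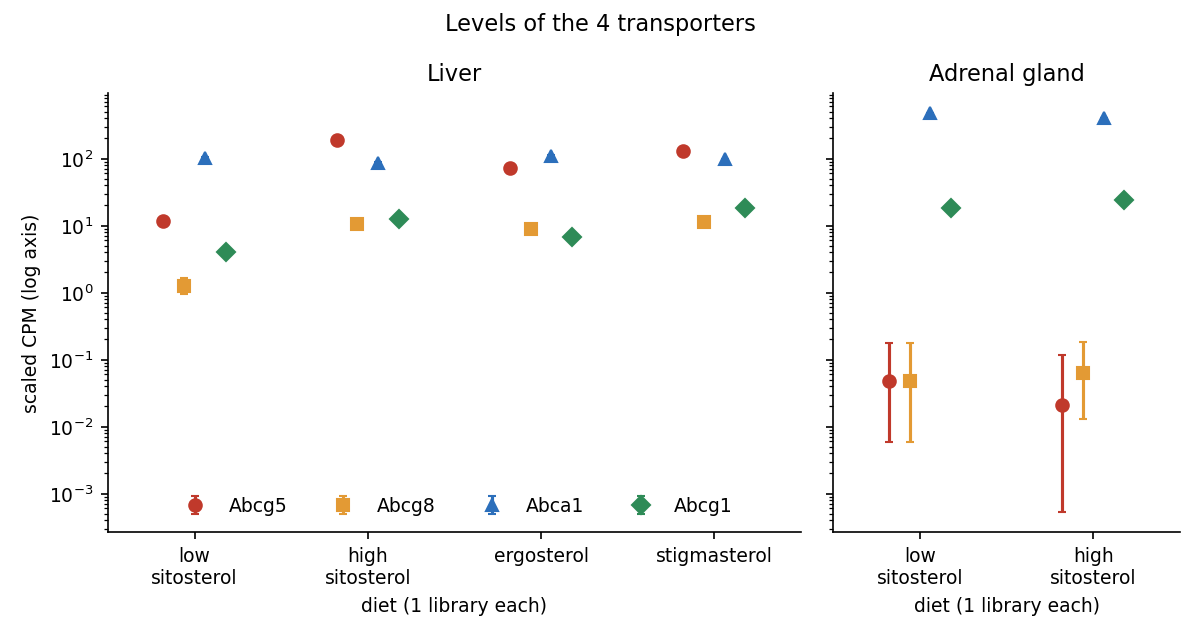
Scaled CPM (vertical log axis) of the 4 transporters in each liver and adrenal library, with exact 95% counting intervals, mostly smaller than the symbols. In liver Abcg5, Abcg8 and Abcg1 are lowest in the low sitosterol library while Abca1 stays between 87.1 and 109.8; in adrenal Abcg5 and Abcg8 rest on 1 to 3 counts each.

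Ranked per length, Abca1 was the most abundant of the 4 transcripts in the low sitosterol liver at 8.37 TPM, followed by Abcg5 (4.69), Abcg1 (1.00) and Abcg8 (0.300). In the other 3 livers Abcg5 ranked first and Abca1 second, at 8.65 TPM with high sitosterol, 12.3 TPM with ergosterol and 15.6 TPM with stigmasterol. Abcg1 stood at 3.62, 2.27 and 8.52 TPM in these livers. Abcg1 and Abcg8 thus changed places: Abcg1 exceeded Abcg8 in 3 livers, while in the ergosterol liver Abcg8 (2.86 TPM) exceeded Abcg1 (2.27 TPM).

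The study compared each sterol liver with the low sitosterol liver to find the genes that differ. In the high sitosterol liver, 3 of the 4 transporters were called higher and 0 lower, where 8.63% of the 13378 genes analysed in liver were called higher and 4.32% lower. Abcg5 stood 16.0-fold higher (log2 ratio 4.0, interval 3.87 to 4.13), and 0.374% of analysed genes had a larger ratio. Abcg8 stood 8.39-fold higher (log2 3.07, 2.66 to 3.53) and Abcg1 3.03-fold higher (log2 1.60, 1.35 to 1.86). The log2 ratio of Abca1 was -0.23 (-0.29 to -0.17), beside a median of -0.05 over all genes.

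In the ergosterol liver, 2 of the 4 were called higher and 0 lower, with 5.77% of all genes called higher and 6.08% lower. Abcg5 stood 6.12-fold higher (log2 2.61, 2.48 to 2.76) and Abcg8 6.94-fold higher (log2 2.80, 2.38 to 3.26), and 0.792% and 0.650% of genes had larger ratios. Abcg1 had a log2 ratio of 0.72 (0.44 to 1.00), short of the 2-fold size, and on the log2(TPM + 0.1) scale it passed that size at 1.10. Abca1 was at 0.11 (0.05 to 0.17).

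In the stigmasterol liver, 3 of the 4 were called higher and 0 lower. Here 21% of all genes were called higher and 8.28% lower, the largest shares of the 3 comparisons. Abcg5 stood 10.9-fold higher (log2 3.45, 3.32 to 3.58), Abcg8 8.96-fold higher (log2 3.16, 2.76 to 3.61) and Abcg1 4.42-fold higher (log2 2.14, 1.91 to 2.39). Larger ratios were seen in 3.30%, 4.10% and 9.19% of genes. Abca1 was at -0.06 (-0.12 to -0.01).

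These 3 comparisons share the low sitosterol liver, so a low value in that 1 library raises all 3 ratios. Library scaling also differed most for the stigmasterol liver: total counts in place of TMM moved the median ratio of all genes by 0.20, 0.18 and 0.73 on the log2 scale in the 3 comparisons, and log2(TPM + 0.1) by 0.26, 0.36 and 0.90. With total counts the share of called genes that were higher rose from 66.6% to 78.4% for high sitosterol, from 48.7% to 65.1% for ergosterol and from 71.7% to 92.9% for stigmasterol. Abcg5 and Abcg8 stayed called higher in all 3 comparisons under each of the 7 alternatives tried. Abca1 in the stigmasterol liver ranged from -0.09 to 1.09, the higher value being relative to hepatocyte markers, and was called higher only at that value.

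**Figure D3:**
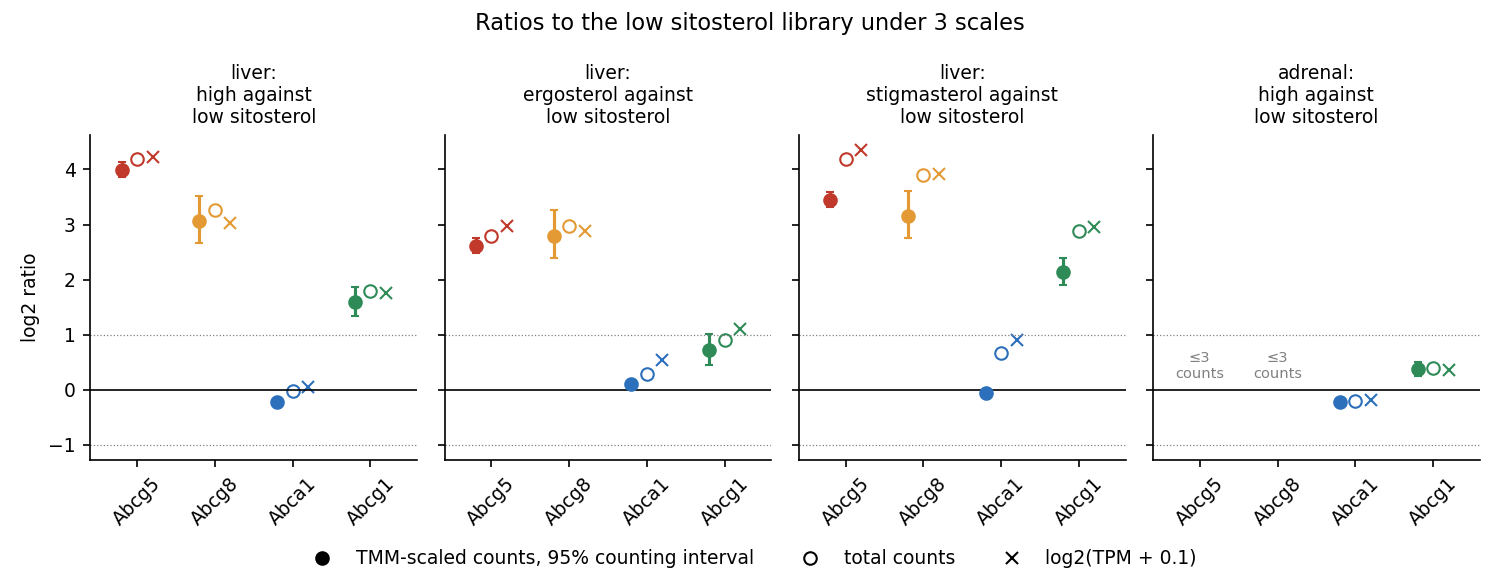
Log2 ratio to the low sitosterol library of the same tissue for each transporter, with TMM-scaled counts and their 95% counting interval (filled), total counts (open) and log2(TPM + 0.1) (crosses). Dotted lines mark 2-fold; Abcg5 and Abcg8 lie beyond it on every scale shown in liver, and Abca1 stays inside it on each of them.

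**Figure D4:**
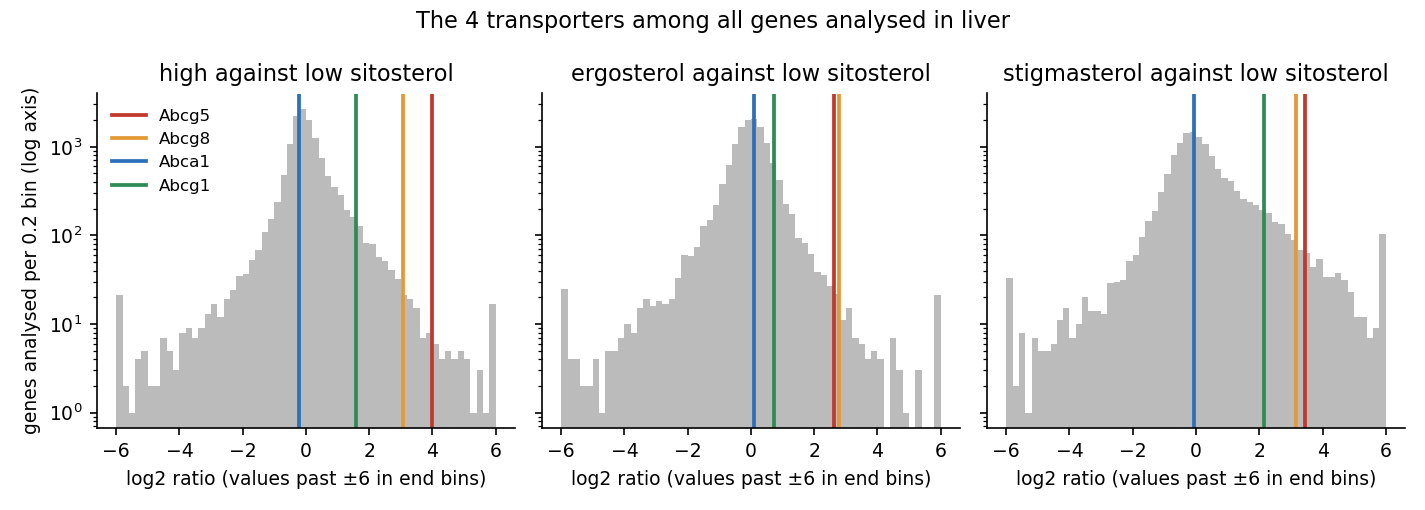
Histograms of the log2 ratio to the low sitosterol liver over the 13378 genes analysed (number of genes per bin, log axis), with a line for each transporter. Abcg5 and Abcg8 lie far into the upper tail in the high sitosterol and ergosterol panels, and the tail of all genes reaches further in the stigmasterol panel.

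The sterol livers were also set against each other, which does not use the low sitosterol liver. Between stigmasterol and high sitosterol none of the 4 transporters passed the size rule on the TMM scale, beside 15.9% of all genes higher and 5.94% lower. Abcg5 had a log2 ratio of -0.55 (-0.59 to -0.51), Abcg8 0.09 (-0.07 to 0.26), Abca1 0.17 (0.11 to 0.22) and Abcg1 0.55 (0.40 to 0.69). The direction for Abcg5 was not stable to scaling, from -0.59 with DESeq2 size factors to 0.12 on the log2(TPM + 0.1) scale and 0.37 relative to hepatocyte markers. Abcg1 kept its place below 2-fold in 3 of the 7 alternatives and was called higher in the other 4, at 1.08 with total counts, 1.21 with log2(TPM + 0.1), 1.04 with log2(TPM + 1) and 1.46 relative to hepatocyte markers. Relative to hepatocyte markers Abcg8 (1.01) and Abca1 (1.08) were called higher as well.

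Ergosterol against high sitosterol gave 1 of 4 lower, with 9.22% of all genes lower and 6.03% higher. Abcg5 stood 2.61-fold lower in the ergosterol liver (log2 -1.38, -1.44 to -1.32), and this call held under each of the 7 alternatives. Abcg8 was at -0.27 (-0.47 to -0.08), Abcg1 at -0.88 (-1.09 to -0.68) and Abca1 at 0.34 (0.27 to 0.40).

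Ergosterol against stigmasterol gave 1 of 4 lower on the TMM scale, where 19.1% of all genes were lower and 7.4% higher. Abcg1 stood 2.68-fold lower in the ergosterol liver (log2 -1.42, -1.61 to -1.24). Abcg5 was at -0.83 (-0.89 to -0.78), and 4 of the 7 alternatives called it lower, at -1.36 to -1.69. Abcg8 was at -0.37 (-0.54 to -0.19), with a lower call in 2 of the 7, at -1.04 with log2(TPM + 0.1) and -1.22 relative to hepatocyte markers, and Abca1 at 0.17 (0.11 to 0.22), which turned to -0.38 with total counts. Stigmasterol and sitosterol differ by 1 double bond in the side chain, but the doses were not given, so none of these values compares the sterols at matched dose.

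Because ABCG5 and ABCG8 act as a pair, the ratio of their transcripts within a library was taken, which no scaling between libraries can change. There were 9.41 Abcg5 counts per Abcg8 count in the low sitosterol liver (interval 7.04 to 12.8), 17.8 with high sitosterol (16.2 to 19.5), 8.24 with ergosterol (7.42 to 9.17) and 11.4 with stigmasterol (10.6 to 12.3). The high sitosterol liver stood above the other 3, whose intervals were lower throughout. Per length the ratio was 15.6, 28.4, 13.1 and 16.3 in TPM, with the same liver highest.

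Expressed as a difference between log2 ratios, the Abcg5 ratio of high to low sitosterol exceeded that of Abcg8 by 0.92 (0.45 to 1.36). For ergosterol the difference was -0.19 (-0.67 to 0.26) and for stigmasterol 0.28 (-0.18 to 0.71), and both intervals include no difference without excluding a modest one. Ergosterol against high sitosterol gave -1.11 (-1.31 to -0.91). A count ratio cannot tell a change in one partner from a change in the knockout transcript of the other.

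The counts and TPM together imply the average length by which the TPM of each gene were scaled. Its unit was set by the median over long genes with a single transcript model, 243 of them in the low sitosterol liver. It may be an effective length, shorter than the full transcript, so it approximates transcript length only. For Abcg8 it was 3693 bases in the low sitosterol, 3580 in the high sitosterol, 3621 in the ergosterol and 3257 in the stigmasterol liver, beside 3667 bases for Abcg8-201, 2415 for Abcg8-202 and 2284 for Abcg8-203. The first 3 livers lay near the longest model and the stigmasterol liver below it. For Abcg5 the implied length stayed between 2222 and 2274 bases in the 4 livers, near the 2351 bases of Abcg5-201. Abca1 ran from 10504 to 10717 bases in liver and was 9905 and 9490 bases in the adrenals, against 10262 for Abca1-201. Abcg1 lay between 3476 and 3633 bases in all 6 libraries, well short of the 5832 bases of Abcg1-201. The Abca1 lengths in liver were above the longest model named here. The annotation behind the deposited values was not given, so the models used for them may differ from these. Whether full or effective lengths were used was not given either, and the part of each in these departures was not tested. The Abcg8 length in the low sitosterol liver rested on 51 counts.

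ABCA1 and ABCG1 act one after the other in loading HDL, and their balance differed between livers. Abca1 had 8.33 times the TPM of Abcg1 in the low sitosterol liver, 2.39 times with high sitosterol, 5.41 times with ergosterol and 1.84 times with stigmasterol. The log2 ratio of Abcg1 exceeded that of Abca1 by 1.83 (1.57 to 2.10) for high against low sitosterol, by 0.61 (0.33 to 0.90) for ergosterol and by 2.21 (1.96 to 2.46) for stigmasterol. Abcg1 was thus higher relative to Abca1 in each sterol liver, whatever the scaling.

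Macrophages express Abcg1, and the summed Kupffer and general macrophage markers, like Abcg1, were lowest in the low sitosterol liver. The order of the other livers depended on the scale. The 15 Kupffer and general macrophage markers, each with counts in every liver, summed to 416.5 scaled CPM in the low sitosterol liver, 1122 in the high sitosterol, 591 in the ergosterol and 903 in the stigmasterol liver, with high sitosterol above stigmasterol, unlike Abcg1. The same sums in TPM were 265, 929, 468 and 1150, in the order of Abcg1. Against low sitosterol, 11 of 15 were higher and 2 lower with high sitosterol, 2 higher and 1 lower with ergosterol, and 9 higher and 4 lower with stigmasterol. For stigmasterol against high sitosterol 2 were higher and 5 lower (median -0.40), while Abcg1 was at 0.55. Of all genes 15.9% were higher and 5.94% lower in that comparison. Against low sitosterol the shares of all genes were 8.63%, 5.77% and 21% higher and 4.32%, 6.08% and 8.28% lower. They apply to the marker lists below as well. In bulk tissue, fewer cells of a type and less RNA per cell cannot be told apart. Per 10000 counts of this marker list there were 97.9 Abcg1 counts (83.5 to 114) with low sitosterol, 110.1 (101 to 119.6) with high sitosterol, 114 (101 to 127) with ergosterol and 199.8 (189 to 211) with stigmasterol. The first 3 livers had overlapping intervals on this measure and the stigmasterol liver stood above them.

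The 11 lipid-associated macrophage markers had 7 higher and 1 lower with high sitosterol (median log2 ratio 2.68), 2 higher and 1 lower with ergosterol (0.28) and 8 higher and 1 lower with stigmasterol (3.84). Their summed level was 1377, 1079, 724 and 1723 scaled CPM from low sitosterol to stigmasterol, so for high sitosterol and ergosterol the sum and the median differ in direction. With total counts 4 were higher with ergosterol and 10 with stigmasterol, beside 8.51% and 39.5% of all genes on that scale. In the stigmasterol liver all 8 cholangiocyte markers were higher, their sum being 897 scaled CPM against 39.3 to 70.9 in the other livers, and 5 of 8 stellate cell markers were higher. The part of these cells in the Abcg1 ratio was not tested.

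Hepatocytes are the liver cells that carry ABCG5 and ABCG8. Of 9 hepatocyte markers none passed the size rule with high sitosterol or ergosterol and 5 were lower with stigmasterol, with medians of -0.30, -0.07 and -1.15. With total counts 1 was lower with stigmasterol, with a median of -0.42 beside 0.77 over all genes. For high sitosterol the median was below 0 although the sum of the list, 148726 scaled CPM, was above the 123868 of the low sitosterol liver. Per 10000 counts of this list there were 0.958 Abcg5 counts with low sitosterol, 12.7 with high sitosterol, 6.01 with ergosterol and 20.8 with stigmasterol. For Abcg8 the values were 0.102, 0.717, 0.730 and 1.82. Abca1 had 8.24, 5.85, 9.09 and 15.7. Relative to hepatocyte RNA the stigmasterol liver was therefore the highest for all 3 genes, while on the scaled CPM scale the high sitosterol liver was the highest for Abcg5 and the ergosterol liver for Abca1.

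Other known LXR targets give the setting of the 4 transporters. Of 15 such genes, 4 were higher and 0 lower with high sitosterol, 4 higher and 0 lower with ergosterol, and 5 higher and 3 lower with stigmasterol. The shares of all genes were 8.63%, 5.77% and 21% higher and 4.32%, 6.08% and 8.28% lower in the same order. Their median log2 ratios were 0.19, 0.59 and -0.08, beside -0.05, 0.00 and 0.04 over all genes. With total counts 5, 6 and 5 were higher and 0 lower in each comparison, beside 11.3%, 8.51% and 39.5% of all genes higher, so the 3 lower calls with stigmasterol depend on the scaling and the 5 of 15 higher there are not above the share of all genes. Lpl, the lipase that frees fatty acids from lipoproteins, had log2 ratios of 3.34, 2.33 and 4.07, and Cyp7a1, which starts the classic route from cholesterol to bile acids, 2.39, 3.42 and 1.44. Both were called higher in all 3 livers, as were Abcg5 and Abcg8.

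Among the lipid synthesis targets of LXR, Srebf1, the master regulator of fatty acid synthesis, was at 0.86, 0.68 and 0.07 and passed the size rule in none of the livers on the TMM scale, though with total counts it did with high sitosterol. Fasn, the fatty acid synthase, was at -0.26 and 0.18 with high sitosterol and ergosterol and at -1.56 with stigmasterol, a lower call on the TMM scale that total counts do not give. Scd1, a desaturase, was at -0.08, 0.92 and -0.23, and with total counts it passed the rule with ergosterol. The phospholipid transfer protein Pltp was higher with ergosterol (1.11), at -1.46 with stigmasterol, again lower on the TMM scale and not with total counts, and at -0.13 with high sitosterol. Cd5l, a protein secreted by macrophages, was at 1.99 and 1.09 with high sitosterol and ergosterol and at -0.08 with stigmasterol.

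**Figure D5:**
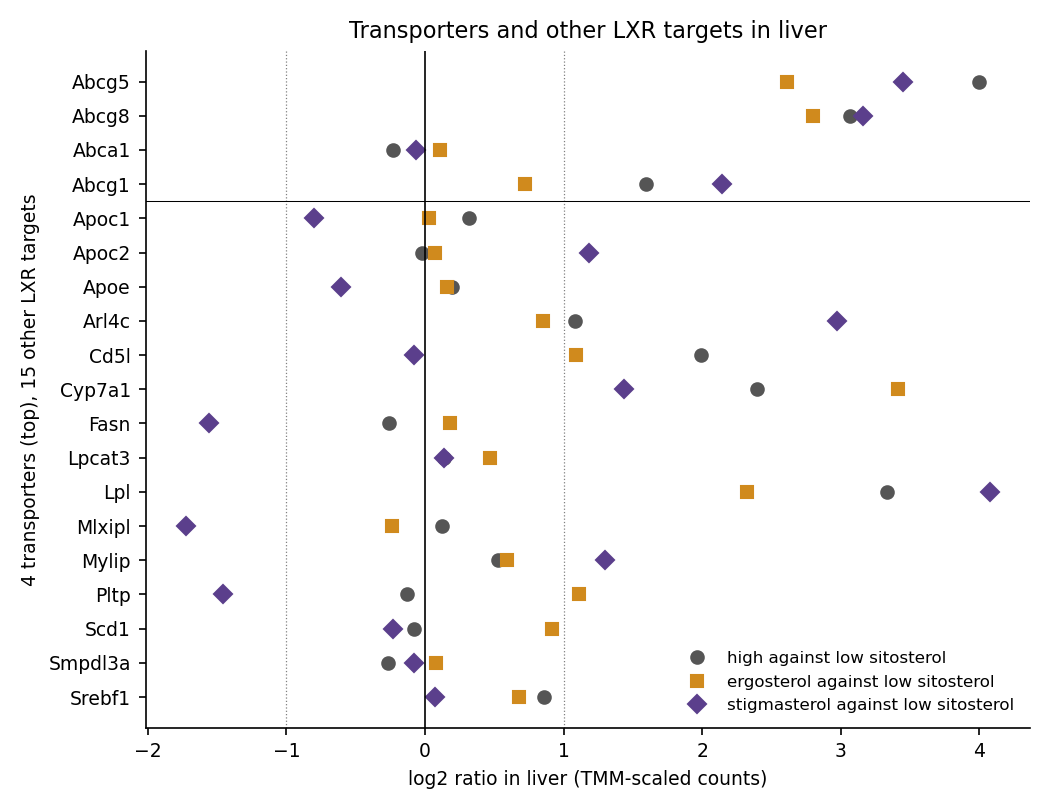
Log2 ratio to the low sitosterol liver (horizontal axis, TMM-scaled counts) for the 4 transporters, above the line, and 15 other LXR targets, with one symbol per sterol liver and dotted lines at 2-fold. Abcg5, Abcg8, Lpl and Cyp7a1 lie to the right of 2-fold in all 3 livers, while Srebf1, Scd1 and Fasn do not.

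Of 14 genes that sense sterols or regulate the transporters, 0 were called in either direction with high sitosterol or ergosterol, and 4 were lower with stigmasterol: Insig1 (log2 -1.99), which holds the SREBP complex in the endoplasmic reticulum, its partner Scap (-1.15), the hepatocyte nuclear receptor Hnf4a (-1.07) and the repressor Nr0b2 (-1.0). Beside these counts, 8.63%, 5.77% and 21% of all genes were higher and 4.32%, 6.08% and 8.28% lower, from high sitosterol to stigmasterol. With total counts 1 of the 14 was lower and 0 were higher with stigmasterol, beside 2.997% and 39.5% of all genes. Nr1h3, which encodes LXR alpha, had log2 ratios of -0.07, -0.07 and -0.81, and Nr1h2, which encodes LXR beta, -0.12, 0.13 and -0.17. Gata4, a hepatic GATA factor, was at -0.08, 0.14 and 0.06.

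Among 15 analysed genes of cellular sterol uptake, egress and esterification, 1 was higher and 2 lower with high sitosterol. Ergosterol gave 1 higher and 0 lower, and stigmasterol 2 higher and 2 lower. The shares of all genes were 8.63%, 5.77% and 21% higher and 4.32%, 6.08% and 8.28% lower in the same order. Gramd1b, which carries cholesterol from the plasma membrane to the endoplasmic reticulum, was higher with high sitosterol (1.23) and stigmasterol (2.16). Stard4, a soluble sterol carrier, fell by 1.21 and 2.40 in the same livers. Soat1, which esterifies cholesterol, was higher with stigmasterol (1.13). With total counts 1 gene of the list was higher and 1 lower with high sitosterol, beside 11.3% and 3.13% of all genes. Stigmasterol gave 4 higher and 1 lower on that scale, where 39.5% of all genes were higher. With log2(TPM + 0.1) high sitosterol gave 2 higher and 0 lower, so its lower calls depend on the scaling.

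The partners of the export route were counted in 2 lists. Beside both, the shares of all genes were 8.63%, 5.77% and 21% higher and 4.32%, 6.08% and 8.28% lower from high sitosterol to stigmasterol. Of 10 genes for HDL acceptors and remodelling, 0 were called with high sitosterol, 1 was higher with ergosterol (Pltp, 1.11) and 4 were lower with stigmasterol, among them hepatic lipase Lipc (-2.27) and Apoa2 (-1.74). Of 10 bile transporters, 2 were lower with high sitosterol, the bile acid uptake carriers Slc10a1 (-1.41) and Slco1b2 (-1.09). With total counts, and with log2(TPM + 0.1), 1 gene of the list was lower, beside 3.13% and 2.42% of all genes. With ergosterol 1 was higher, the basolateral exporter Abcc3 (2.12). With stigmasterol 3 were higher and 3 lower: Abcc4 (3.10), Abcb1a (2.82) and Abcc3 (1.11) against Slc10a1 (-3.80), Slco1b2 (-2.05) and the bile salt export pump Abcb11 (-1.27). Abcc4 and Abcb1a had 1.06 and 1.29 scaled CPM in the low sitosterol liver, near the floor of 1 CPM for analysis. Total counts gave 3 lower and 1 higher HDL genes and 3 higher and 2 lower bile transporters with stigmasterol.

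The rest of the ABC family was counted in the same way. Of 46 other ABC genes with a row, 36 were analysed in liver. With high sitosterol 5 were higher and 1 lower, with ergosterol 5 and 1, and with stigmasterol 10 and 3. Their medians were 0.01, 0.42 and 0.06. Of all genes analysed in liver 8.63%, 5.77% and 21% were higher and 4.32%, 6.08% and 8.28% lower. With total counts the same comparisons gave 6 and 1, 8 and 1, and 13 and 0 of the 36 ABC genes. Under total counts 13 of 36 with stigmasterol is near the 39.5% of all genes that were higher there. Abca9 and the peroxisomal transporter Abcd2 were called higher in all 3 livers, at 1.51, 1.25 and 2.31 and at 1.31, 1.86 and 1.03. Abcg2, the exporter of urate and many drugs and a relative of the members, was called in none, at -0.81, 0.15 and -0.43. Abcb1b was lower with high sitosterol (-2.43) and ergosterol (-3.00). It had 5.09 scaled CPM in the low sitosterol liver and 723 in the low sitosterol adrenal. Among the livers, the low sitosterol one held the largest share of adrenal cortex markers. The part of adrenal RNA in the Abcb1b ratios was not tested.

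Genes with the most similar course over the 4 livers were named by the root mean square distance between centred log2 levels, among 8007 genes with at least 10 scaled CPM in 1 liver. Of these, Abcg8 was the nearest to Abcg5 (distance 0.421), followed by Adam11 (0.439), Slc16a5 (0.445), Lpl (0.470) and Slc3a1 (0.499). The nearest to Abcg8 were Adam11 (0.288), Slc16a5 (0.365), Abcg5 (0.421), Slc3a1 (0.423) and Tnfaip2 (0.459). Adam11, the gene that came nearest to Abcg8, had 3.29, 36.3, 27.5 and 23.0 scaled CPM in the 4 livers.

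The nearest genes to Abcg1 were Ddit4 (0.0430), Axl (0.0680), Ptprc (0.0750), Cyth4 (0.0812) and Clec12a (0.0821). Ptprc encodes the leukocyte surface protein CD45 and had 3.63, 11.0, 6.74 and 17.5 scaled CPM. For Abca1, which varied little in scaled CPM, the nearest were Rnf128, Rnf19b, Smpdl3a, Fiz1 and Fcgr2b (0.00731 to 0.0164). With TPM 2 of these 5 remained among the nearest 5. For Abcg5, Abcg8 and Abcg1, 5, 4 and 4 of 5 remained. The gene that left the nearest 5 of Abcg8 was Abcg5, which ranked 10 with TPM, and Abcg8 ranked 2 for Abcg5, behind Adam11. The likeness rests on 4 libraries and is a description.

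In the adrenal gland the order of the 4 genes was another. Abcg5 had 2 counts with low sitosterol and 1 with high sitosterol, and Abcg8 had 2 and 3, so both were at or below what a count of 0 allows and no ratio between the adrenals was taken. Hepatocyte markers were present in the adrenals at a median of 0.0260% and 0.0313% of their liver level. Shares of that size would give 0.105 and 2.70 counts of Abcg5 and 0.0112 and 0.152 counts of Abcg8.

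Abca1 had 19529 counts with low sitosterol and 19585 with high sitosterol, or 473 and 405 scaled CPM. At 74.5 and 65.0 TPM it stood above 89.7% and 88.5% of the genes detected in the 2 adrenals. Abcg1 had 754 and 1147 counts, or 18.3 and 23.7 scaled CPM, at 7.87 and 10.1 TPM. High against low sitosterol gave a log2 ratio of -0.23 (-0.25 to -0.20) for Abca1 and 0.37 (0.24 to 0.51) for Abcg1. None of the 2 analysed transporters passed the size rule, where 3.8% of 14224 genes analysed in adrenal were higher and 2.31% lower.

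As in liver, Abcg1 was higher relative to Abca1 in the high sitosterol library, here by 0.60 on the log2 scale (0.46 to 0.74). The Kupffer and general macrophage markers summed to 714 scaled CPM with low and 1164 with high sitosterol, and 5 of 14 analysed were higher and 0 lower. Of 11 lipid-associated macrophage markers, 0 were higher and 2 lower. Clec4f, which marks Kupffer cells, had no counts in the low sitosterol adrenal. Per 10000 counts of the Kupffer and general list Abcg1 had 256 (238 to 275) and 203.7 (192 to 216) counts. On this measure the low sitosterol adrenal was the higher. Adipocyte markers moved the other way, with 7 of 8 lower and sums of 3816 and 1573 scaled CPM. The part of either cell type in the transporter values was not tested.

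Of 13 other LXR targets analysed in adrenal, 1 was higher (Cd5l, log2 2.96) and 3 were lower (Fasn -1.67, Lpl -1.58, Scd1 -1.56), with a median of -0.03. Among all genes 3.8% were higher and 2.31% lower. Cd5l was a low transcript there, at 2.33 scaled CPM with high and 0.291 with low sitosterol. Lpl, which was higher in all 3 sterol livers, was thus lower in the high sitosterol adrenal, and the difference between the tissues was not tested. These 3 lipid genes were lower in the library in which 7 of 8 adipocyte markers were lower (median -1.28), and the part of adipocytes in their ratios was not tested. Of 13 sensor and regulator genes 0 were higher and 2 lower, Nr1h4 (-1.08) and Insig1 (-1.04). Soat2 was the 1 gene called, higher at 1.45 (0.62 to 2.42), among 14 analysed for sterol uptake, egress and esterification. It had 1.01 scaled CPM with high and 0.364 with low sitosterol, so it was near the floor of 1 CPM for analysis.

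Between tissues Abcg5 and Abcg8 were called lower in adrenal than in liver on either diet, with 23.8% of 15125 genes lower on low and 24.3% on high sitosterol. With TMM over all 6 libraries the log2 ratio of adrenal to liver was -8.80 (-12.29 to -7.37) for Abcg5 and -5.57 (-9.08 to -4.07) for Abcg8 on low sitosterol, and -13.73 (-19.83 to -12.05) and -8.47 (-11.07 to -7.23) on high sitosterol. These ratios rest on 1 to 3 adrenal counts, hence their wide intervals. The Y-linked genes were lower in adrenal as well, and whether both tissues came from mice of the same sex was not tested.

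For Abca1 and Abcg1 the tissue ratio depended on the scaling. With TMM the Abca1 ratio of adrenal to liver was 0.91 on low and 0.85 on high sitosterol, short of 2-fold, and with total counts it was 2.48 and 2.30 and called higher. Abcg1 was at 0.86 and -0.42 with TMM and at 2.43 and 1.03 with total counts. In TPM, Abca1 stood at 74.5 in the low sitosterol adrenal against 8.37 in the liver, and Abcg1 at 7.87 against 1.00. On the TMM scale 33.2% and 30.2% of all genes were higher in adrenal on low and high sitosterol, and with total counts 67.9% and 64.5% were, so a higher call with total counts was shared by most genes.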

How the data were processed

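RNA was sequenced from 4 livers and 2 adrenals. Per the labels, a Qiagen RNeasy kit and a TruSeq RNA kit (v2) were used; that kit is unstranded. Per the submitters' processing notes, the tools were Trimmomatic 0.33, HISAT2 2.0.5 and kallisto 0.43.1 on mm10, with no step assigned to any of them. The authors deposited estimated counts by gene symbol, of which 39.1% to 49.3% per library were not whole, and the matching TPM, which are scaled for transcript length. Annotation, filters and the summing of transcripts to genes are not given in the sources used.

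Estimated counts were rounded to whole numbers, and 1 row without a gene name, holding 0% of all counts, was left out. Genes with at least 1 CPM in 1 library of a tissue were analysed (13378 in liver, 14224 in adrenal, 15125 over all 6). TMM factors came from edgeR 4.0.16 in R 4.3.3: in liver 0.82 with low and 0.95 with high sitosterol, 0.93 with ergosterol and 1.37 with stigmasterol, and 0.99 and 1.01 for the low and high sitosterol adrenals. Tissue ratios used TMM over all 6 libraries. Log2 ratios had a prior count of 0.5 and an exact (Clopper-Pearson, conditional binomial) 95% interval. Differences between 2 genes' log2 ratios had exact conditional intervals from the 4 counts. Intervals, and limits that take 3 counts for a count of 0, describe counting error alone, because PCR copies are not independent molecules. The ratio script was tested on simulated data.

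Each comparison used 1 library per group, so no test was run. Alternatives were total counts, DESeq2 1.42.0 size factors, log2(TPM + 0.1), log2(TPM + 1), a prior count of 2, no low-count filter and, added after the data were seen, ratios relative to the median of 9 hepatocyte markers. The members, gene lists and comparisons were chosen with earlier results of these data known. Named genes were the members, the 5 genes nearest to each in course over the livers (ordinary symbols, at least 10 scaled CPM in the highest liver) and members of the gene lists, those with the largest ratios first. Coordinates are from GENCODE M21 on GRCm38 (mm10). Promoter sequences are from RefSeq on GRCm38.p6, where 3 of the 4 members had an entry, and motifs were searched on both strands.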

Additional observations from a re-analysis of the deposited data

How the results depend on the processing

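Only 1 mouse stood behind each library, so differences between mice were not measured, and leaving out a replicate was not possible. No paired analysis was possible because each group had 1 library. No member ratio called on the TMM scale changed sign under an alternative run for it, of which the tissue ratios had 1. Abca1 in stigmasterol against low sitosterol and Abcg1 in adrenal against liver on high sitosterol, both below 0 and uncalled on the TMM scale, were called higher under 1 alternative each, at 1.09 and 1.03. Single genes of the lists were not followed through the alternatives, apart from Srebf1, Scd1, Fasn and Pltp with total counts. In liver against low sitosterol, Abcg5 and Abcg8 kept their calls under all 7 alternatives. The deposited TPM keep no depth, and Abcg8 in the low sitosterol liver rested on 51 counts.

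With total counts, the log2 ratios to the low sitosterol liver moved to 4.2 (Abcg5) and -0.027 (Abca1) for high sitosterol, to 2.80 and 0.29 for ergosterol, and for stigmasterol to 4.18 (Abcg5), 3.89 (Abcg8), 0.67 (Abca1) and 2.88 (Abcg1). Stigmasterol against high sitosterol moved to -0.016 (Abcg5), 0.62 (Abcg8), 0.70 (Abca1) and 1.08 (Abcg1, called higher). Ergosterol against stigmasterol moved to -1.39 (Abcg5, now called lower), -0.92 (Abcg8), -0.38 (Abca1) and -1.98 (Abcg1). Adrenal against liver moved on low sitosterol to -7.37 (Abcg5), 2.48 (Abca1) and 2.43 (Abcg1) and on high sitosterol to -7.12 (Abcg8), 2.30 (Abca1) and 1.03 (Abcg1). DESeq2 size factors moved Abcg5 in stigmasterol against high sitosterol to -0.59.

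On the log2(TPM + 0.1) scale the ratios to low sitosterol were 4.23 (Abcg5) and 0.047 (Abca1) for high sitosterol, 2.97 (Abcg5), 0.55 (Abca1) and 1.10 (Abcg1, now called higher) for ergosterol, and 4.35 (Abcg5), 3.92 (Abcg8), 0.89 (Abca1) and 2.96 (Abcg1) for stigmasterol. Stigmasterol against high sitosterol gave 0.12 (Abcg5), 0.89 (Abcg8), 0.85 (Abca1) and 1.21 (Abcg1, called higher). Ergosterol against high sitosterol gave -1.26 (Abcg5), 0.50 (Abca1) and -0.65 (Abcg1), and ergosterol against stigmasterol -1.38 (Abcg5), -1.04 (Abcg8), -0.35 (Abca1) and -1.86 (Abcg1), of which Abcg5 and Abcg8 are now called lower. In adrenal Abca1 was at -0.20.

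On the log2(TPM + 1) scale, which understates ratios of low genes, they were 1.68 (Abcg8), 0.042 (Abca1) and 1.20 (Abcg1) for high sitosterol, 2.76 (Abcg5), 1.57 (Abcg8) and 0.50 (Abca1) for ergosterol and 4.11 (Abcg5), 2.42 (Abcg8) and 0.83 (Abca1) for stigmasterol. Stigmasterol against high sitosterol gave 0.12 (Abcg5), 0.74 (Abcg8), 0.79 (Abca1) and 1.04 (Abcg1, called higher). Ergosterol against high sitosterol gave -1.24 (Abcg5), 0.46 (Abca1) and -0.50 (Abcg1), and ergosterol against stigmasterol -1.36 (Abcg5, now called lower), -0.85 (Abcg8) and -0.33 (Abca1). In adrenal Abca1 was at -0.19. With deposited TPM in place of counts the ratio of Abcg5 to Abcg8 was 15.6, 28.4, 13.1 and 16.3 from low sitosterol to stigmasterol.

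Relative to the median of 9 hepatocyte markers, an alternative chosen after seeing the data, the ratios were 4.30 (Abcg5), 0.071 (Abca1) and 1.90 (Abcg1) for high sitosterol, 0.18 (Abca1) for ergosterol, and 4.60 (Abcg5), 4.32 (Abcg8), 1.09 (Abca1, now called higher) and 3.30 (Abcg1) for stigmasterol. Stigmasterol against high sitosterol gave 0.37 (Abcg5), 1.01 (Abcg8), 1.08 (Abca1) and 1.46 (Abcg1), the last 3 called higher. Ergosterol against stigmasterol gave -1.69 (Abcg5), -1.22 (Abcg8), -0.69 (Abca1) and -2.28 (Abcg1), with Abcg5 and Abcg8 now called lower.

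Counts of all genes called moved more. Against low sitosterol, 1154 genes were higher and 578 lower with high sitosterol, and the alternatives beyond 1.5 times gave 560 higher with log2(TPM + 1) and 324, 154 and 1126 lower with log2(TPM + 0.1), log2(TPM + 1) and no filter. For ergosterol (772 and 814) they gave 1622 higher with log2(TPM + 0.1) and 395, 188 and 1313 lower in the same order. For stigmasterol (2814 and 1108) they gave 5285 and 6223 higher with total counts and log2(TPM + 0.1), and 401 lower with total counts and 311, 234 and 1824 in the same order. In adrenal (540 and 329) log2(TPM + 1) gave 271 and 197, and no filter 1057 and 659. For stigmasterol against high sitosterol (2124 and 795) they gave 3886 and 4376 higher with total counts and log2(TPM + 0.1), and 347 lower with total counts and 290, 192 and 1293 in the same order. For ergosterol against high sitosterol (807 and 1234) log2(TPM + 1) gave 420 lower. For ergosterol against stigmasterol (990 and 2556) they gave 426, 417 and 276 higher with total counts, log2(TPM + 0.1) and log2(TPM + 1), and 4018 lower with total counts. The cause of these moves was not tested beyond the scale itself.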
